A study of Mus musculus with 9 samples.

Results

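The 10 genes described here build and organise the postsynaptic side of the neuromuscular junction: the muscle acetylcholine receptor subunits Chrna1, Chrnb1, Chrnd, Chrne and Chrng, the clustering genes Musk, Lrp4, Dok7 and Rapsn, and the adhesion molecule Ncam1. They were taken by gene symbol from a table of raw read counts for 23284 genes, and all 10 were found. RNA was amplified and sequenced from gastrocnemius, the large calf muscle, of 3-month-old mice of mixed 129/C57/BL6 background after exercise. The 4 knockout libraries carry the genotype label Grpc6afl/fl;Mck-Cre, a Gprc6a gene flanked by loxP sites together with Cre under the muscle creatine kinase promoter, which is active in differentiated striated muscle. The 5 control libraries carry the label Grpc6afl/fl, the same loxP-flanked gene without Cre. The floxed gene, the exercise and the age are shared by both groups. Cre is in the knockouts only, so effects of Cre itself and of losing the gene cannot be told apart. The titles of the knockouts name Gprc5a-/-, while their genotype and description name the Gprc6a locus. Gprc6a had 0 counts in all 9 libraries, so its counts do not test the group labels. Gprc5a, the gene in the titles, had 181, 176, 172 and 67 counts in knockouts 1 to 4, against 246, 118, 153, 159 and 229 counts in controls 1 to 5, so the groups overlapped. Nothing in the labels ties a library to its own animal, and p-values here cover only library-to-library spread, which may be technical.

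At the mature junction the motor nerve releases agrin, which binds Lrp4 on the fibre. Lrp4 then activates the receptor tyrosine kinase MuSK together with its cytoplasmic adaptor Dok7, and rapsyn, the product of Rapsn, anchors the clustered receptors. The adult receptor holds alpha, beta, delta and epsilon subunits, and the fetal one holds gamma (Chrng) in place of epsilon (Chrne). Adult fibres transcribe these genes mainly in the few nuclei under the nerve ending, and denervation raises several of them along the whole fibre. In whole-muscle RNA, fewer cells or nuclei of a type and less RNA in each cannot be told apart.

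Promoter sequences from RefSeq (build GRCm38.p6, 250 bases before to 50 bases after the gene's start) were at hand for 6 of the 10 genes. Those of the adult and fetal subunits, of the alpha subunit and of Musk are shown, and those of Chrnb1 and Dok7 are only counted. Capitals mark the E-box CANNTG, the site class of myogenic factors such as myogenin and MyoD, and the N-box CCGGAA, the site class of the ETS factor GABP. Both strands were searched and no marked sites overlap.
Chrne (chr11:70619145-70619444, minus strand): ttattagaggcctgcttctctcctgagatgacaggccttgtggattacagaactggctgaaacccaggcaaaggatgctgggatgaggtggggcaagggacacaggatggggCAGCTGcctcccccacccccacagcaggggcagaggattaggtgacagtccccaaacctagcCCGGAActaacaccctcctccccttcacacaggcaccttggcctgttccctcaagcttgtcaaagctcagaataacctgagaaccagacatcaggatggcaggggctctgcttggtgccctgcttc
Chrng (chr1:87205561-87205860, plus strand): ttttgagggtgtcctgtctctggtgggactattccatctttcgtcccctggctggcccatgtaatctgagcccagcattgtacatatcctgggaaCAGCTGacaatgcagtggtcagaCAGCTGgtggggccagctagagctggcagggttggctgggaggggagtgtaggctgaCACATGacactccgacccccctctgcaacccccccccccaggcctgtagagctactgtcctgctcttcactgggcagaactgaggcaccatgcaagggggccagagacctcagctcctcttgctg
Chrna1 (chr2:73580289-73580588, minus strand): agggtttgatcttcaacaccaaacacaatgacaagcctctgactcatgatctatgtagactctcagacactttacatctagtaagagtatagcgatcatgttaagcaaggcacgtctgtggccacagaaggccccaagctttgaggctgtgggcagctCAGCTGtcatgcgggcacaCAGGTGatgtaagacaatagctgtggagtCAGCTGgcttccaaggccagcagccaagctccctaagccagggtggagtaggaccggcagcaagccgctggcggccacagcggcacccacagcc
Musk (chr4:58285712-58286011, plus strand): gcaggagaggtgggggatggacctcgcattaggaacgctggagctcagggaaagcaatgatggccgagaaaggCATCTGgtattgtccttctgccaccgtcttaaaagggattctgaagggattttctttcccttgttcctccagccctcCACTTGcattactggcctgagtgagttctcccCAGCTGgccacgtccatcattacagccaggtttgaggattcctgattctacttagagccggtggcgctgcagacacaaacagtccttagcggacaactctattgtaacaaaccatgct
The Chrne window held 1 E-box and 1 N-box, the N-box starting 76 bases before the gene's start. The Chrng, Chrna1 and Musk windows held 3 E-boxes each and no N-box. Of the windows not shown, that of Chrnb1 held 3 E-boxes and those of Dok7 held 1 and 0, all without an N-box. Of all 32851 promoter windows of this length, 72.3% held at least 1 E-box, with a median of 1 E-box per window, and 14.9% held an N-box. These letter matches are descriptions of the sequence, not binding sites.

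Sequencing depth was 19522947 to 22796548 counts per knockout library and 20401633 to 25608659 per control library. Levels below are in CPM: each count was divided by the library's total after TMM scaling for composition, then brought to the same scale in all libraries. A gene without counts could still be present at up to 3 counts by counting error alone. That is 0.117 to 0.154 CPM depending on the library, taken on library totals before TMM scaling. Fast fibre proteins, among them the myosin Myh4 and the creatine kinase Ckm, summed to 212000 to 280000 CPM in knockouts and 200000 to 269000 CPM in controls over 13 markers. Of 8 motor nerve markers, Chat and Slc18a3, the enzyme and the vesicle carrier of acetylcholine, had 0 counts in every library. The list summed to 2.18 to 3.79 CPM in knockouts and 2.29 to 3.93 CPM in controls. Nefh (0.738 to 2.19 CPM) and Prph (0.901 to 2.48 CPM) made up most of each sum, and innervation itself was not measured. Schwann cell markers, which belong to the nerve sheath, summed to 305 to 505 CPM in knockouts and 205 to 529 CPM in controls over 12 genes. Control 5 and knockouts 3 and 4 are skewed to short transcripts. Their slopes of log2 CPM on log2 transcript length were -0.17, -0.18 and -0.09. Controls 1 and 4 are skewed to long transcripts, with slopes of 0.22 and 0.13, and no fit left out both. Controls 4 and 5 are richest in adipocyte transcripts, with marker sums of 936 and 859 CPM against 277 to 497 CPM in the other 7 libraries. Values without the 3 libraries skewed to short transcripts, or without controls 4 and 5, stand beside many of the results below.

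All 10 genes had enough counts to be tested, and none passed the threshold of 0.05 between knockout and control muscle in the edgeR quasi-likelihood test after Benjamini-Hochberg adjustment over 13198 genes (adjusted p = 0.966 for each of the 10). The share of all genes called was 0.0% in each direction, with 427 genes (3.24%) at an unadjusted p under 0.05. DESeq2 called 3 genes (0.0165% of those with an adjusted p) and limma-voom 0, and none of the 10 was among them. The 5 receptor subunits, Rapsn and Ncam1 stood slightly above 0 in log2 fold change. Musk and Dok7, which act together in the kinase complex, stood below 0 at an unadjusted p under 0.05, 2 of 10 genes where 1.8% of all tested genes did so in that direction. In the other direction 0 of 10 did, against 1.43% of all tested genes. The groups overlapped in all 10 genes, and 0.811% of all tested genes had groups that did not overlap.

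**Figure D1:**
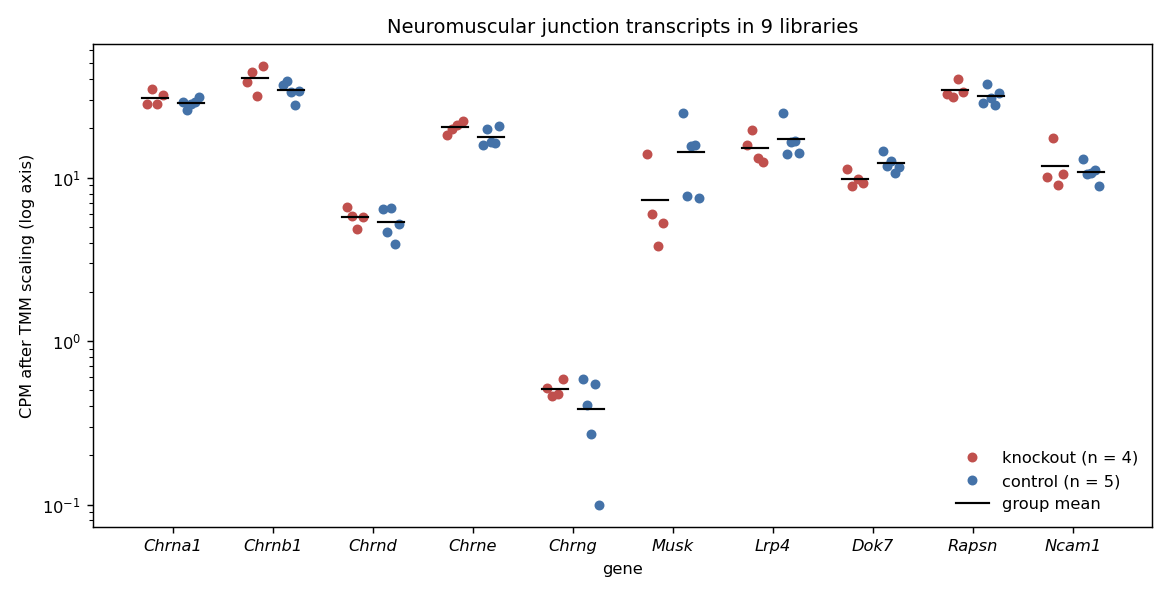
CPM after TMM scaling (log axis) of the 10 junction genes in 4 knockout libraries (red) and 5 control libraries (blue), with a line at each group mean. Musk spreads from 3.79 to 25.0 CPM, while Chrna1 stays between 25.9 and 34.9 CPM, and Chrng lies below 0.6 CPM in every library.

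Chrna1 encodes the alpha subunit, which carries the acetylcholine binding site and is present in both the fetal and the adult receptor. It stood at 28.2, 34.9, 28.3 and 31.9 CPM in knockouts 1 to 4, against 29.0, 25.9, 28.2, 28.9 and 31.1 CPM in controls 1 to 5. Knockout 2 was the highest library and control 2 the lowest, and the other 7 lay between them. The means were 30.8 ± 3.22 CPM in knockouts and 28.6 ± 1.86 CPM in controls (SD, n = 4 and 5), a log2 fold change of 0.11 (SE 0.10). This gene was among the steadier of its level: its within-group SD of 0.12 on the log2 scale exceeded that of 18.9% of the 4185 tested genes within a factor of 2 in mean CPM. The fold change was 0.04 without knockout 2, 0.18 without control 5 and knockouts 3 and 4, and 0.16 without controls 4 and 5.

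Chrnb1 encodes the beta subunit, through which rapsyn links to the receptor. It stood at 38.4, 44.6, 31.5 and 48.3 CPM in knockouts 1 to 4, against 36.9, 38.9, 33.4, 27.997 and 34.1 CPM in controls 1 to 5. Knockouts 2 and 4 lay above every control, while knockout 3 lay below all controls but control 4. The means of 40.7 ± 7.34 CPM in knockouts and 34.3 ± 4.15 CPM in controls gave a log2 fold change of 0.25 (SE 0.14, unadjusted p = 0.0949 in edgeR). The fold change was 0.16 without knockout 4 (unadjusted p = 0.297 in edgeR) and 0.35 without knockout 3 (unadjusted p = 0.0178 in edgeR). It was 0.17 without controls 4 and 5 and 0.26 with the length slope as a covariate. The unadjusted p of Chrnb1 was under 0.05 in 2 of 23 alternatives, and its smallest adjusted p over them was 0.52.

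Chrnd encodes the delta subunit and was the least abundant of the adult subunits. It stood at 6.66, 5.81, 4.88 and 5.78 CPM in knockouts 1 to 4, against 6.40, 4.65, 6.56, 3.95 and 5.19 CPM in controls 1 to 5. Knockout 1 was the highest library by a narrow margin, and the other 3 knockouts lay within the control range, with a log2 fold change of 0.11 (SE 0.17). Without controls 4 and 5 it was -0.01, and it was 0.21 without control 5 and knockouts 3 and 4.

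Chrne, the epsilon subunit of the adult receptor, stood at 18.3, 19.9, 21.1 and 22.2 CPM in knockouts 1 to 4, against 15.8, 19.8, 16.5, 16.2 and 20.7 CPM in controls 1 to 5. Knockouts 3 and 4 lay above every control, and controls 1, 3 and 4 lay below every knockout. The means were 20.4 ± 1.68 CPM in knockouts and 17.8 ± 2.27 CPM in controls, a log2 fold change of 0.19 (SE 0.11). Knockouts 3 and 4 and control 5, the libraries skewed to short transcripts, held the 3 highest values, and Chrne has a short transcript of 1616 bases. With the length slope of each library as a covariate, or without these 3 libraries, the fold change ranged from 0.13 to 0.17. The unadjusted p of Chrne was under 0.05 in 3 of 23 alternatives, and its smallest adjusted p over them was 0.448.

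Chrng, the gamma subunit of the fetal receptor, was the least abundant of the 10 genes. Its raw counts were 12, 11, 10 and 11 in knockouts 1 to 4, against 13, 10, 7, 12 and 2 in controls 1 to 5. The level was 0.510 ± 0.0545 CPM in knockouts and 0.382 ± 0.201 CPM in controls, a log2 fold change of 0.40 (SE 0.38). Control 5, with 2 counts, held the lowest value, and without it the fold change was 0.19. It was 0.14 without the 3 libraries skewed to short transcripts and 0.65 with the length slope of each library as a covariate. Summed over libraries, there were 1760 Chrne counts beside 44 Chrng counts in knockouts, and 2035 Chrne counts beside 44 Chrng counts in controls. Per kilobase of the longest GENCODE M21 transcript, the level of Chrne was 68.8-fold that of Chrng in knockouts and 80.1-fold in controls. Per kilobase of the median transcript it was 27.8-fold in knockouts and 32.4-fold in controls. The median lengths, over all annotated transcripts, were 1116 bases for Chrne and 777 for Chrng, against longest transcripts of 1616 and 2780 bases. The 44 Chrng counts of each group bound the precision of both ratios, and their difference was not tested.

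Per kilobase of the longest transcript, the order of the genes by CPM held at its top and bottom in all 9 libraries and varied between. Rapsn and Chrnb1 took the first and second places in every library, Chrne always the third and Chrng always the tenth. Chrna1 and Musk were the genes that took the fourth place. Musk ranged from place 4 to place 9 over the libraries, and Chrnd and Ncam1 each from place 6 to place 9. Rapsn averaged 21.4 ± 2.50 CPM per kilobase in knockouts and 19.5 ± 2.45 in controls. Chrnb1 averaged 18.9 ± 3.40 CPM per kilobase in knockouts and 15.9 ± 1.93 in controls, so the ranges of these neighbours in the order overlapped. Chrne averaged 12.6 ± 1.04 CPM per kilobase in knockouts and 11.02 ± 1.40 in controls. Chrna1 averaged 7.03 ± 0.734 CPM per kilobase in knockouts and 6.53 ± 0.423 in controls, and over the 9 libraries its highest level, 7.96, lay below the lowest of Chrne, 9.77. Dok7, Musk, Lrp4, Chrnd and Ncam1 followed with overlapping ranges between 1.11 and 7.31 CPM per kilobase. Per kilobase of the median transcript, Chrnb1 took the first place and Rapsn the second in every library. Their ranges did not overlap on that scale, at 45.7 to 78.7 CPM per kilobase for Chrnb1 and 19.0 to 27.6 for Rapsn. Chrne stayed in the third place and Chrng in the tenth. The median length was 613 bases for Chrnb1 and 1454 for Rapsn, against longest transcripts of 2155 and 1606 bases. It was taken over all annotated transcripts of a gene, without a filter for those holding the full coding sequence. The order thus depends on which transcript is taken as the length, and amplified cDNA need not cover transcripts evenly.

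Musk encodes the muscle-specific kinase that drives receptor clustering, and of the 10 genes it varied most between libraries of the same group. It stood at 14.0, 6.02, 3.79 and 5.25 CPM in knockouts 1 to 4, against 25.0, 7.77, 15.5, 15.7 and 7.53 CPM in controls 1 to 5. Knockouts 2, 3 and 4 lay below every control, while knockout 1 lay above controls 2 and 5. The means were 7.28 ± 4.61 CPM in knockouts and 14.3 ± 7.19 CPM in controls, a log2 fold change of -0.97 (SE 0.44, unadjusted p = 0.0489 and adjusted p = 0.966 in edgeR). Its within-group SD of 0.77 on the log2 scale exceeded that of 98.4% of the 4022 tested genes of like level, and its highest library held 6.59-fold the CPM of its lowest.

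Musk levels are set here beside the length slope, the slope of a library's log2 CPM on the log2 of transcript length over all tested genes. Musk was at 3.79, 7.53, 5.25 and 7.77 CPM in the 4 libraries of lowest slope, knockout 3, control 5, knockout 4 and control 2 (slopes -0.18, -0.17, -0.09 and -0.01). It was at 15.5, 14.0, 6.02, 15.7 and 25.0 CPM in the 5 of highest slope, control 3, knockout 1, knockout 2, control 4 and control 1 (slopes 0.01, 0.05, 0.06, 0.13 and 0.22). Knockout 2 was low in Musk although its slope was not. With the slope as a covariate the Musk fold change was -0.59 (unadjusted p = 0.0761 in edgeR), and -0.67 when the 3 libraries skewed to short transcripts were left out (unadjusted p = 0.230). Without controls 4 and 5 it was -1.13 (unadjusted p = 0.0614). It was -1.51 without knockout 1 (unadjusted p = 0.00294 in edgeR) and -0.67 without control 1 (unadjusted p = 0.142). The unadjusted p of Musk was under 0.05 in 10 of 23 alternatives, and the adjusted p ran from 0.375 to 1.0 over the alternatives run. The longest Musk transcript, of 3422 bases, is of middling length, longer than that of 49.7% of tested genes.

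**Figure D2:**
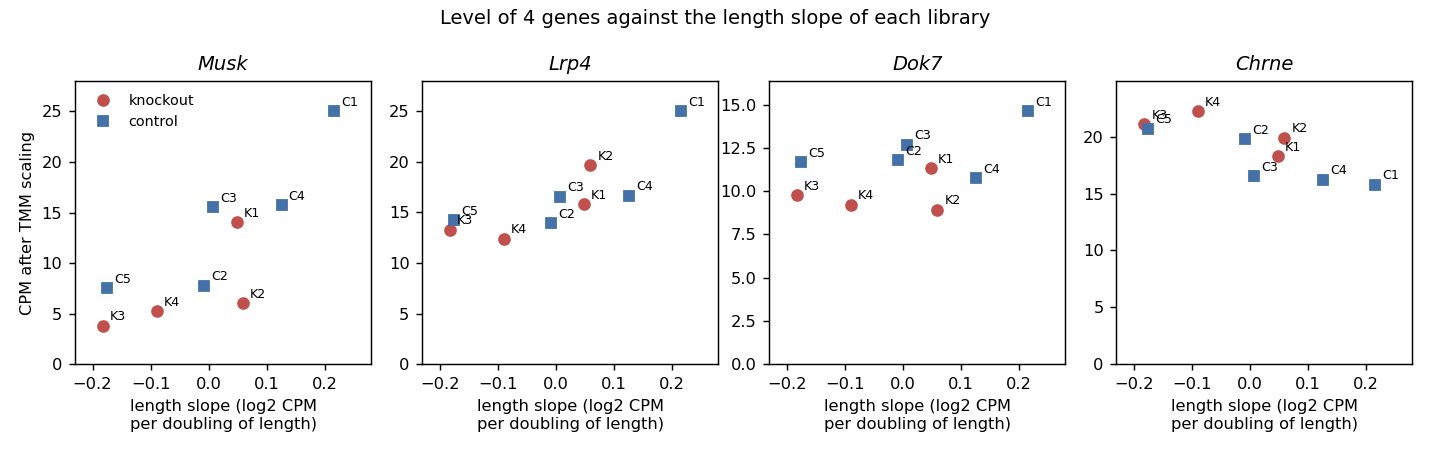
CPM after TMM scaling of Musk, Lrp4, Dok7 and Chrne against the length slope of each library (log2 CPM per doubling of transcript length), for knockouts 1 to 4 (red circles, K1 to K4) and controls 1 to 5 (blue squares, C1 to C5). Control 1, at a slope of 0.22, holds the highest Musk, Lrp4 and Dok7 levels and the lowest Chrne level.

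Lrp4 encodes the agrin receptor that activates MuSK. It stood at 15.8, 19.6, 13.3 and 12.4 CPM in knockouts 1 to 4, against 25.0, 13.9, 16.5, 16.7 and 14.2 CPM in controls 1 to 5. Control 1 stood apart at the top and the other 4 controls lay within the knockout range. The means were 15.3 ± 3.24 CPM in knockouts and 17.3 ± 4.49 CPM in controls, a log2 fold change of -0.17 (SE 0.19). Without control 1 it was -0.002, with the length slope as a covariate -0.02, and without the 3 libraries skewed to short transcripts -0.02. Without controls 4 and 5 it was -0.26. Lrp4 has the longest transcript of the 10 genes, 7926 bases.

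Dok7 encodes the adaptor that dimerises and activates MuSK from inside the fibre. It stood at 11.3, 8.93, 9.77 and 9.23 CPM in knockouts 1 to 4, against 14.6, 11.8, 12.7, 10.8 and 11.7 CPM in controls 1 to 5. Knockouts 2, 3 and 4 lay below every control, and knockout 1 lay above control 4 only. The means were 9.81 ± 1.07 CPM in knockouts and 12.3 ± 1.46 CPM in controls, a log2 fold change of -0.33 (SE 0.12, unadjusted p = 0.0215 and adjusted p = 0.966 in edgeR). Unlike Musk it was steady within groups, with a log2 SD of 0.16. The fold change stayed between -0.40 and -0.26 over the 23 alternatives, and it was -0.29 with the length slope as a covariate (unadjusted p = 0.0259) and -0.30 without the 3 libraries skewed to short transcripts (unadjusted p = 0.114). The unadjusted p was also above 0.05 without knockout 2, without knockout 4 and without control 1, at 0.0624, 0.0554 and 0.0562.

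Rapsn, whose product anchors the receptors beneath the membrane, stood at 32.5, 31.1, 40.2 and 33.6 CPM in knockouts 1 to 4, against 28.4, 37.5, 30.5, 27.7 and 32.8 CPM in controls 1 to 5. Knockout 3 was the highest library and control 2 the second, and control 4 was the lowest. The means were 34.3 ± 4.01 CPM in knockouts and 31.4 ± 3.94 CPM in controls, and the log2 fold change was 0.13 (SE 0.12). It was 0.04 without knockout 3, 0.20 without control 2 and 0.04 once control 5 and knockouts 3 and 4 were left out. Its transcript of 1606 bases is the shortest of the 10, and the fold change was 0.06 with the length slope as a covariate.

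Ncam1, the neural cell adhesion molecule that adult fibres concentrate at the junction and that satellite cells and Schwann cells also make, stood at 10.1, 17.4, 8.96 and 10.6 CPM in knockouts 1 to 4, against 13.02, 10.6, 10.7, 11.2 and 8.92 CPM in controls 1 to 5. Knockout 2 stood above all other libraries, and the other 3 knockouts lay within the control range. The log2 fold change of 0.11 (SE 0.19) was -0.14 without knockout 2 and 0.22 without knockout 3. It was 0.28 without control 5 and knockouts 3 and 4, 0.23 with the length slope as a covariate and 0.05 without controls 4 and 5. Satellite cell markers summed to 110, 138, 115 and 102 CPM in knockouts 1 to 4 and 117, 108, 132, 119 and 148 CPM in controls 1 to 5. Sdc4 was the largest part of each sum, at 58.7, 86.6, 70.5 and 56.0 CPM in knockouts 1 to 4. Among knockouts, Pax7, Megf10, Calcr and Chodl were also highest in knockout 2, while Cdh15 and Myf5 were not. Knockout 2 thus held the highest satellite cell sum of its group, largely through Sdc4, with Schwann cell markers lowest of its group at 305 CPM. It also held the highest fibroblast sum, 3810 CPM against 1780 to 3260 CPM in the other 8 libraries, and a keratinocyte sum of 92.0 CPM, second to control 2 at 148 CPM. The part of these cells in the Ncam1 level was not tested. In the GENCODE M21 annotation the antisense gene Gm11149 covers 4.81% of the exonic bases of Ncam1, and reads of the pair could not be told apart without strand.

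**Figure D3:**
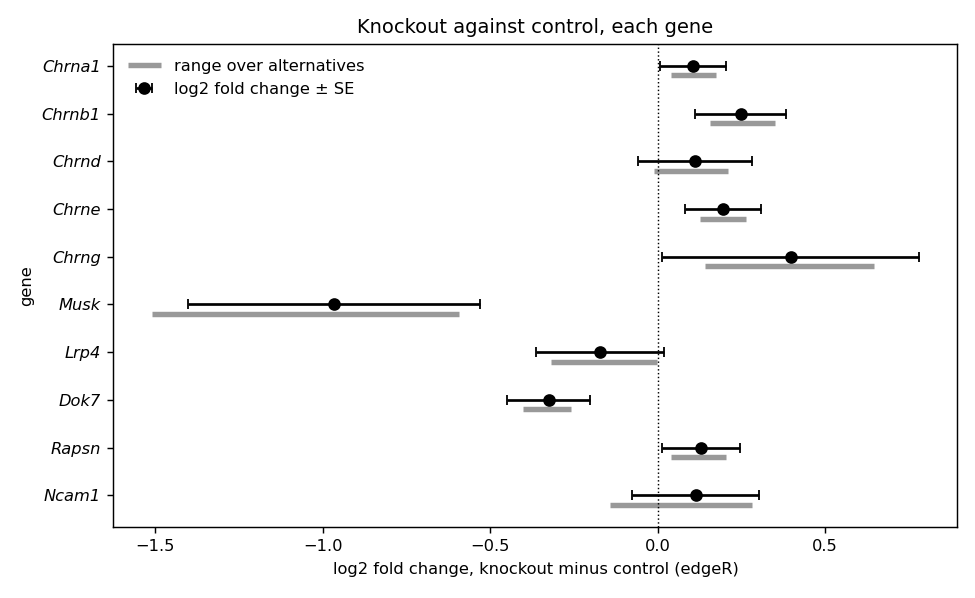
Log2 fold change (knockout minus control, edgeR) of each junction gene as a point with its SE, and below it a grey bar from the lowest to the highest value over the alternatives. Musk lies at -0.97 with a bar from -1.51 to -0.59, and the bars of Chrnd and Ncam1 reach across 0.

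Counted together, 7 of the 10 genes stood above 0 and 3 below, where 49.4% of tested genes stood above and 50.6% below. The median of the 10 was 0.11, against -0.002 over all tested genes. The 5 receptor subunits all stood above 0, with a median of 0.20. The count above 0 was 5 without the libraries skewed to short transcripts and with the length slope as a covariate, and 4 without controls 4 and 5. The 5 clustering and adhesion genes had a median of -0.17, which was -0.02 once control 5 and knockouts 3 and 4 were left out and -0.26 without controls 4 and 5.

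The patterns across libraries were compared by the root mean square difference of log2 CPM, each gene centred on its own mean over 9 libraries, among 9390 genes of at least 5 CPM. The closest to Chrna1 were Kbtbd10, a kelch protein of the sarcomere, at 0.060, Tbpl1, a TATA-binding protein relative, at 0.067 and the transcription factor gene Nfib at 0.071. The root mean square deviation of Chrna1 from its own mean was 0.118. Chrne, the nearest junction gene compared, was beyond that at 0.171, in place 1901. The closest to Chrne were Vps37c at 0.038, Sppl3 at 0.045 and Klhl31 at 0.051. Among those of the 10 genes at 5 CPM or more, which leaves out Chrng, Rapsn stood nearest to Chrne at 0.118. That was only place 488 of 9390, and the own deviation of Chrne was 0.17. The closest to Ncam1 were the myosin Myo1e at 0.052, Sash1 at 0.115 and Zfc3h1 at 0.119. Of the 10 genes, again without Chrng, Lrp4 stood nearest to Ncam1 at 0.222, in place 448, and the own deviation of Ncam1 was 0.278. Musk, looked up after its values were seen, had no gene closer than Lnpep, an aminopeptidase of glucose transporter vesicles, at 0.347, followed by Setbp1 at 0.372 and the water channel Aqp4 at 0.373, where its own root mean square deviation was 0.840.

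Other genes of the junction were counted in lists. Of 20 tested genes of synaptic signalling, 0 passed in either direction, 9 stood above 0 and 11 below, and the median was -0.04. Agrn, the agrin gene, named after its values were seen, stood at 16.4 ± 2.11 CPM in knockouts and 15.2 ± 2.23 CPM in controls, a log2 fold change of 0.11 (SE 0.14). Which cells these Agrn reads came from was not tested, so they do not measure agrin released by the nerve. Pdzrn3, a ubiquitin ligase that acts on MuSK, stood at 99.1, 112.7, 86.8 and 107.3 CPM in knockouts 1 to 4, against 127.8, 134.0, 108.9, 134.0 and 107.6 CPM in controls 1 to 5. Knockouts 1, 3 and 4 lay below every control, and knockout 2 lay above controls 3 and 5. Its log2 fold change was -0.27 (SE 0.11, unadjusted p = 0.0299 and adjusted p = 0.966 in edgeR). The unadjusted p was 0.0764 without control 5 and knockouts 3 and 4, 0.0506 without controls 4 and 5 and 0.0938 without knockout 3. It was under 0.05 in 15 of 23 alternatives.

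Of 21 genes of synaptic structure, 0 passed, 3 stood above 0 and 18 below, with a median of -0.13. With the length slope as a covariate 10 stood above 0 and 11 below, with a median of -0.002, and without the 3 libraries skewed to short transcripts 5 stood above and 16 below. The smallest p-values belonged to syntrophins and utrophin, which join the receptor cluster to the cytoskeleton. Sntb2 was at a log2 fold change of -0.50 (SE 0.28), Sntb1 at -0.82 (SE 0.53) and Utrn at -0.27 (SE 0.19). Utrn averaged 36.9 ± 6.54 CPM in knockouts and 44.4 ± 11.4 CPM in controls. With the length slope as a covariate Sntb2 was at -0.26, Sntb1 at -0.24 and Utrn at -0.08. Once control 5 and knockouts 3 and 4 were left out, Sntb2 was at -0.19, Sntb1 at -0.58 and Utrn at -0.15. Ache, the acetylcholinesterase gene, and Colq, its collagen tail, were named after their values were seen. Ache stood at 46.4 ± 3.90 CPM in knockouts and 43.3 ± 4.41 CPM in controls. Colq stood at 16.1 ± 2.53 CPM in knockouts and 15.5 ± 2.02 CPM in controls, and both differences were smaller than the group SDs.

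Of 16 genes that follow denervation, 0 passed, 5 stood above 0 and 11 below, with a median of -0.13. Once control 5 and knockouts 3 and 4 were left out, 7 stood above and 9 below, with a median of -0.01. Without controls 4 and 5, 8 stood above and 8 below, with a median of -0.06. The list was not split by whether a gene rises or falls after denervation. These counts and medians therefore give no denervation direction. The histone deacetylase Hdac4, which represses a repressor of synaptic genes after denervation, was at -0.54 (SE 0.37), the embryonic myosin Myh3 at -0.34 (SE 0.31) and the transcription factor Runx1 at -0.19 (SE 0.19). Hdac4 stood at 12.0, 14.9, 9.06 and 9.17 CPM in knockouts 1 to 4, against 29.3, 14.2, 12.3, 20.9 and 5.73 CPM in controls 1 to 5. Control 1 was the highest library in Hdac4, as it was in Musk, and control 5 the lowest. With the length slope as a covariate Hdac4 was at -0.05, Myh3 at -0.12 and Runx1 at -0.06. Once control 5 and knockouts 3 and 4 were left out, Hdac4 was at -0.50, Myh3 at -0.02 and Runx1 at -0.03.

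Of 5 genes of the sugar chains that receptor subunits carry, in which human mutations cause congenital myasthenia, 0 passed and 4 stood above 0. Gmppb, an enzyme of mannose activation, averaged 5.68 ± 1.38 CPM in knockouts and 4.28 ± 0.559 CPM in controls, a log2 fold change of 0.40 (SE 0.17, unadjusted p = 0.0386 and adjusted p = 0.966 in edgeR). Without single libraries its fold change ranged from 0.22 to 0.48, the lowest without knockout 3 (unadjusted p = 0.172). It was 0.22 without control 5 and knockouts 3 and 4 (unadjusted p = 0.244), 0.30 without controls 4 and 5 (unadjusted p = 0.166) and 0.35 with the length slope as a covariate (unadjusted p = 0.0665). The unadjusted p of Gmppb was under 0.05 in 15 of 23 alternatives. Of the 11 nicotinic subunits of neurons and other tissues, 3 had enough counts to be tested and 0 passed. Chrna10 averaged 14.9 ± 2.05 CPM in knockouts and 14.4 ± 1.61 CPM in controls, Chrna9 averaged 3.25 ± 0.955 CPM in knockouts and 3.10 ± 1.04 CPM in controls, and Chrna2 averaged 1.13 ± 0.366 CPM in knockouts and 1.39 ± 0.856 CPM in controls.

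**Figure D4:**
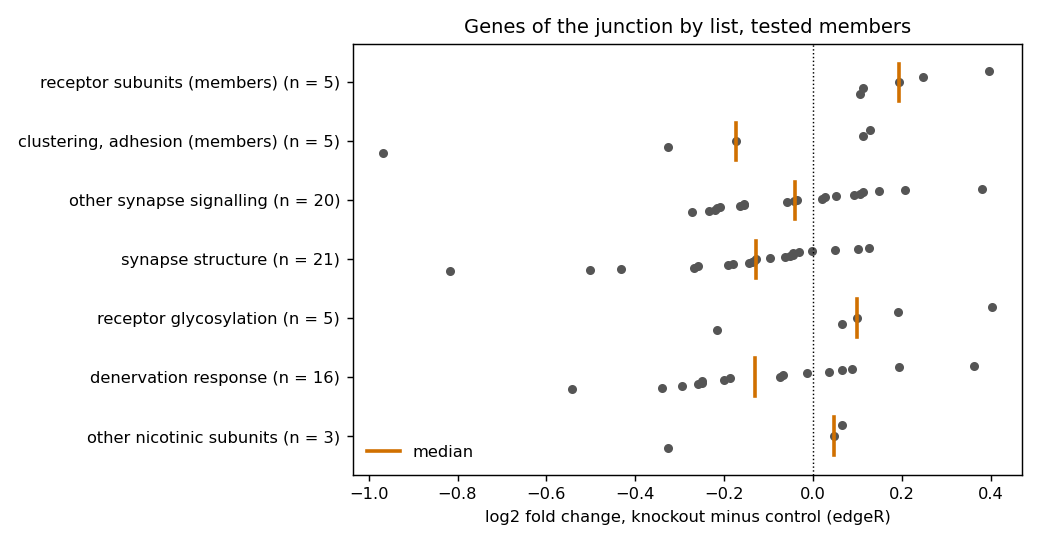
Log2 fold change (knockout minus control, edgeR) of each tested gene in the lists of junction genes, with an orange line at each list's median. The receptor subunits lie at 0.11 to 0.40, and synaptic structure genes have a median of -0.13 with 18 of 21 below 0.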

How the data were processed

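The authors deposited raw read counts per gene symbol, 1 column per library, without normalization. Tools named in the submitters' processing notes are HTSeq 0.6.1, TopHat, Bowtie 0.12.7 and bcl2fastq 1.8.4, and the build named there is mm9. Which annotation was counted, and with which strand option, is not given in the sources used here. Per the labels' protocols, RNA had to reach an integrity number of 6.7 and was amplified before library preparation, so counts are not independent molecules. Total counts per library were 19522947 to 25608659.

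The deposited counts went into edgeR 4.0.16 (R 4.3.3): filterByExpr with a minimum count of 10 (13198 genes), TMM scaling, and a robust quasi-likelihood test of knockout against control over all genes, with Benjamini-Hochberg adjustment and a threshold of 0.05. DESeq2 1.42.0 and limma 3.58.1 (limma-voom) were alternatives. Standard errors were derived from the fold change and the F statistic. The steps were checked on simulated counts. Libraries of a group were not duplicates, with chi-square per degree of freedom of 16.7 to 92.2 between pairs. No member fell under the count filter, so the permutation test planned for such members was not needed. Lengths and overlaps came from GENCODE M21 (GRCm38), and promoters from RefSeq (GRCm38.p6). The files give no coordinates, and their mm9 build was not used here. All 171 listed symbols were found, 1 of them by a RefSeq synonym.

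The members, gene lists and doubted libraries were chosen with earlier results of these data known. Genes named beside the members were, by a fixed rule, those at an unadjusted p under 0.05 in each list, or else the 3 of smallest p, and the 3 genes nearest in pattern to Chrna1, Chrne and Ncam1.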

Additional observations from a re-analysis of the deposited data

Results flagged for a closer look

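Lrp4 in control 1, at 25.0 CPM, lay far above the other 4 controls, which stood at 13.9 to 16.7 CPM. Its gap to the next control was 0.752 of the whole range of the controls, above the critical value of 0.71 for 5 samples. Control 1 was also the highest library in Musk and Dok7 and had the highest length slope, 0.22. Of 20 groups of member values checked, this was the only one past its critical value, which chance exceeds in about 1 of 20.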

How the results depend on the processing

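Over 229 results of the 10 members under the alternatives, none passed the threshold (smallest adjusted p 0.375) and 2 changed sign. Chrnd was at -0.0106 without controls 4 and 5, and Ncam1 ranged from -0.14 to 0.22 with each library left out. The alternative at a threshold of 0.1 is the main fit read again, not a separate fit. DESeq2 called 3 genes of the whole table lower and the block on the label number called 1, and no member was among them. In edgeR, 2 members stood lower at an unadjusted p under 0.05. That number was 1 with upper quartile scaling, with library totals only, with DESeq2, without the count filter, without controls 4 and 5 and with the length slope as covariate, 0 without control 5 and knockouts 3 and 4, and 0 to 2 with each library left out. The number higher, 0 in edgeR, was 2 with limma-voom, 1 with the block and 0 to 1 with each library left out. Without the replicate block Musk was at -0.97 and with it, over label numbers 1 to 4 and so without control 5, at -1.17 (adjusted p = 0.375, edgeR). Deviations of same-numbered libraries correlated at 0.41, 0.04, 0.08 and -0.06, and not every library correlated best with its own number. The highest correlation, 0.50, was between control 5 and knockout 3, which have like length slopes (-0.17 and -0.18). These correlations therefore cannot decide whether the numbers pair the libraries. Chrna2 ranged from -0.53 to 0.14, Chrna10 from -0.0289 to 0.13 and Chrna9 from -0.16 to 0.21 with each library left out. Chrna10 was at -0.0524 without control 5 and knockouts 3 and 4 and at -0.0335 with the length covariate. Chrna9 was at -0.0248 with limma-voom, -0.0540 with the block and -0.14 without controls 4 and 5. Per kilobase of the median transcript, control levels were 55.9 CPM for Chrnb1, 21.6 for Rapsn, 16.0 for Chrne, 0.492 for Chrng, 4.92 for Lrp4 and 4.24 for Ncam1. These levels differ from those per kilobase of the longest transcript only through the length used, 613 against 2155 bases for Chrnb1. The cause of the shifts in fold change was not tested.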
